A study of Mus musculus with 31 samples.

Results

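The granins Chga, Chgb and Scg2 were followed through 31 single-colour Illumina bead arrays of tissue from the bed nucleus of the stria terminalis and preoptic area (BNST/POA) of MF1 mice aged 152 days. They were chosen by name, as every probe annotated to one of these 3 genes, which gave 5 of the 25697 probes in the scanner table, 12250 of which could be named, and 3 of the 11711 genes tested. Scg2 had 1 probe (ILMN_1237378), Chgb had 1 (ILMN_2679377) and Chga had 3 (ILMN_2814927, ILMN_2723763 and ILMN_2716146). The study used the Sex Chromosome Trisomy model of Klinefelter syndrome and asked whether the feminized partner preference of its XXY males is mirrored in gene expression. Its male groups were 8 XXY males (labelled XXY.Sry), 8 XY males (XY.Sry) and 7 XX males (XXSry), beside 8 XX females. Sry, the testis-determining gene, is named in the labels of all 3 male groups, and in this model it is carried apart from the Y chromosome. The labels name 2 batches: 5 arrays of every group were in batch 1, and 3 of every group but 2 of the XX males were in batch 2. No hormone treatment or gonadectomy is given in the labels, so gonad type differs between the females and all 3 male groups.

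Granins are acidic, heavily processed proteins that fill the dense-core vesicles of neurons and endocrine cells. Chga encodes chromogranin A and Chgb chromogranin B, which help to form the granule core and are cut into shorter peptides, and Scg2 encodes secretogranin II, the precursor of secretoneurin. In hypothalamic and limbic neurons these vesicles also carry neuropeptides such as oxytocin and thyrotropin-releasing hormone, so granin transcripts are widely used as a sign of the regulated secretory pathway. The array holds no measure of vesicles, proteins or peptides.

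The promoters of these genes are known for a cAMP response element, and they are shown because all 3 windows hold such a motif or a near copy. It lies at a like distance from the start in Chgb and Scg2 and nearer the start in Chga. Each sequence runs 5′ to 3′ on the gene's own strand and is the 120 bases before the RefSeq start on GRCm38.p6, with the motif in capitals.
Chga, chr12:102554821-102554940, + strand: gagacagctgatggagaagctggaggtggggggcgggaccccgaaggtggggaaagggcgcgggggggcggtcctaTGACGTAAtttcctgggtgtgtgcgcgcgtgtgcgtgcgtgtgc
Chgb, chr2:132781522-132781641, + strand: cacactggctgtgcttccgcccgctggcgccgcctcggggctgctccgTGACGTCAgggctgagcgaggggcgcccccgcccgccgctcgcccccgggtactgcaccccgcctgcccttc
Scg2, chr1:79440027-79440146, - strand: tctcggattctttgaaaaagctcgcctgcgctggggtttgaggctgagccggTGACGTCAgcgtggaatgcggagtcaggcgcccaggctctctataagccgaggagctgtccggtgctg

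The full element TGACGTCA lay 72 to 65 bases before the start in Chgb and 68 to 61 bases before it in Scg2. Chga held TGACGTAA, 44 to 37 bases before the start. Both motifs were searched on both strands of the 250 bases before each start, and they cannot overlap as the same site. TGACGTCA was in 508 of 32851 promoter windows (1.55%) and TGACGTAA in 147 (0.447%). TGACGTAA, the variant that Chga holds, was the only near copy counted. How often any near copy occurs was therefore not computed. Among other genes of the secretory pathway with a window, TGACGTCA was in 3 of 42 neuropeptide precursors (Cartpt, Sst and Ucn) and 1 of 8 processing enzymes (Pcsk1). It was in 0 of 18 vesicle membrane and release genes and 0 of 3 other granin-like genes, and TGACGTAA was in 0 genes of these lists. These list counts are of genes, while the shares before them are of windows. A match describes letters in this window and is not a measured binding site.

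Facts of the whole series that touch these genes were few. Between 12939 and 14397 probes were detected per array, and the first principal component, with 32% of the variance, was 83% batch. Array XX male 6 is described as batch 1 but lay at 27.7 on that component, above the lowest batch 2 array at 20.4, while the other batch 1 arrays reached at most -10.8. Values without it are given where it changes a call or moves a correlation strongly. The 4 arrays numbered 2 had the fewest detected probes (12939 to 13235, others at least 13401), and their Chga deviations from the fit of group and batch were -0.36, -0.11, -0.23 and -0.26. The 4 arrays numbered 6 had the highest median intensities (211.4 to 258.6, others at most 200.9). Xist, the RNA of the inactive X, was detected in 8 of 8 XX females, 7 of 7 XX males, 8 of 8 XXY males and 0 of 8 XY males, as the labels give. Of 17 marker genes written for the BNST/POA, 10 were measured, Gad1, Gal and Sst among them. 12 of 16 general neuronal markers were measured, and their mean log2 level per array lay between 12.47 and 12.74. In XXY males minus XY males the median of 7 measured meningeal markers was 0.63 and that of 8 thalamic markers -0.37, with no member past the threshold, and their part in the granin values was not tested. The labels do not tie each array to a separate animal, so the spread behind each p-value may be partly technical, and in this bulk tissue fewer cells of a type and less RNA per cell cannot be told apart.

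Scg2 was among the bright probes, with scanner intensities of 9332 to 22590 (median 14038) and a median bead standard error of 3.01%. Its log2 signal (background-corrected, quantile-normalized) ran from 13.67 in XX female 7 to 14.03 in XX female 1, with a median of 13.83 in the XX females. The XX males ran from 13.59 in XX male 6 to 13.96, with a median of 13.78. The XXY males lay close together, from 13.73 to 13.92 around a median of 13.84. The XY males ran from 13.38 in XY male 5, the lowest of all arrays, to 13.97 in XY male 4, with a median of 13.77. The means ± SD were 13.84 ± 0.06 (n = 8) in XXY males, 13.84 ± 0.11 (n = 8) in XX females, 13.77 ± 0.13 (n = 7) in XX males and 13.75 ± 0.19 (n = 8) in XY males. No neighbours in this order differed by the test given below, and every group overlapped the others.

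Chgb intensities ran from 2508 to 6027 (median 3505), with a median bead standard error of 3.10%. The log2 signal of XX females ran from 11.70 to 11.96 (median 11.78) and that of XX males from 11.67 to 12.09 (median 11.81). XXY males ran from 11.42 in XXY male 3, the lowest array, to 11.98 (median 11.82), and XY males from 11.49 in XY male 2 to 12.06 in XY male 4 (median 11.80). The means ± SD were 11.85 ± 0.13 (n = 7) in XX males, 11.81 ± 0.09 (n = 8) in XX females, 11.79 ± 0.19 (n = 8) in XXY males and 11.78 ± 0.16 (n = 8) in XY males. These 4 means lay within 1 SD of each other, and all groups overlapped.

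Chga was read by 3 probes to the same transcript record. The probe used for the gene, ILMN_2814927, had intensities of 858 to 2508 (median 1264) and a median bead standard error of 4.03%. Its log2 signal ran from 9.98 to 10.70 (median 10.44) in XX females and from 10.03 to 10.67 (median 10.29) in XX males, whose highest array was XX male 6. XXY males ran from 10.02 to 10.96 in XXY male 8 (median 10.25), and XY males from 9.80 in XY male 5 to 10.56 in XY male 3 (median 10.23). The means ± SD were 10.42 ± 0.23 (n = 8) in XX females, 10.33 ± 0.30 (n = 8) in XXY males, 10.28 ± 0.25 (n = 7) in XX males and 10.23 ± 0.27 (n = 8) in XY males. Each step in this order was smaller than the SD of either group. Probe ILMN_2723763 gave the same order, with 10.28 ± 0.22, 10.22 ± 0.21, 10.13 ± 0.18 and 10.02 ± 0.34. Probe ILMN_2716146 gave 9.74 ± 0.22 in XX females, 9.66 ± 0.25 in XX males, 9.59 ± 0.28 in XXY males and 9.43 ± 0.27 in XY males. XX females were highest and XY males lowest on all 3 probes, with overlap on each.

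**Figure D1:**
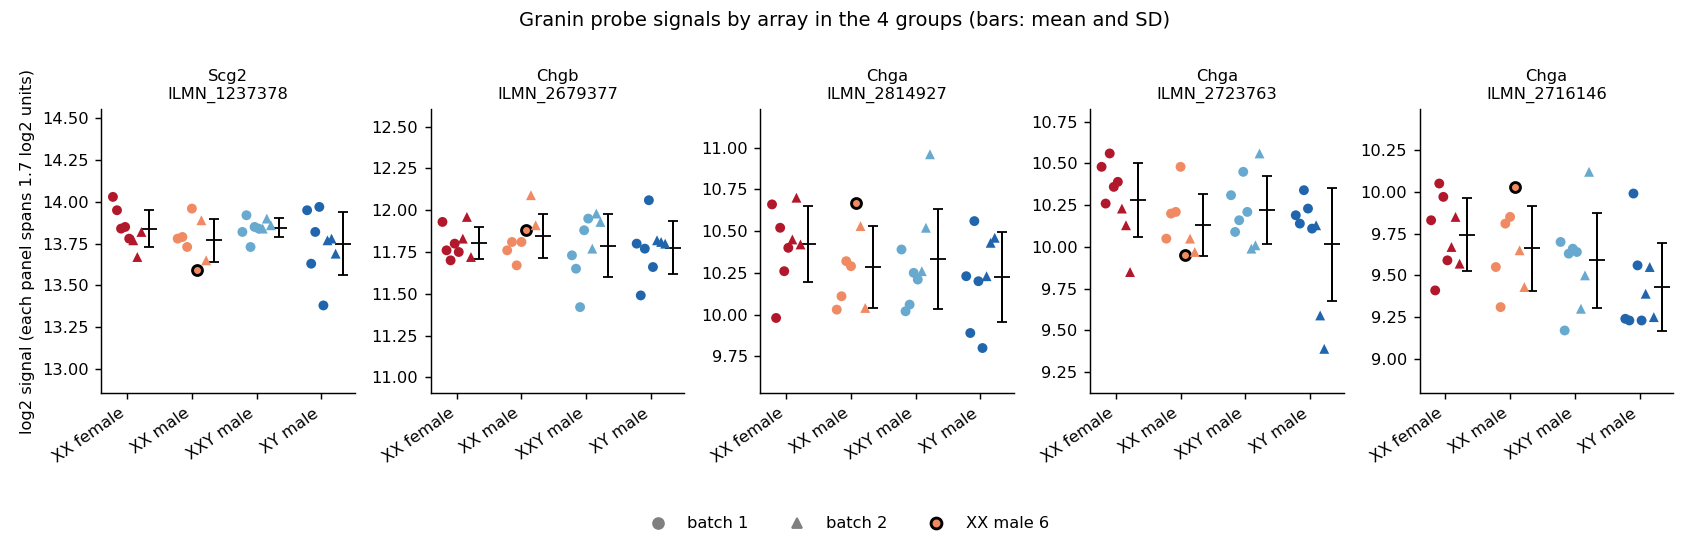
Log2 signal of each granin probe (y axis, 1.7 log2 units in every panel) on 31 arrays, by group (x axis), with circles for batch 1, triangles for batch 2 and a black ring for XX male 6. Bars are mean and SD, and in each panel the 4 groups overlap, with Scg2 of XXY males at 13.73 to 13.92 and XY male 5 at 13.38.

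The spread left within groups and batches was smaller for Scg2 and Chgb than for the Chga probes. The residual SD of the fit, which removes group and batch, was 0.132 log2 units for Scg2 and 0.139 for Chgb. Both were low among the 11711 genes tested, at percentiles 15.8 and 18.3 of residual SD around a median of 0.231. The Chga probes had 0.244, 0.208 and 0.261, near that median.

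XXY males against XY males ask what an added X chromosome changes in animals with testes. Scg2 differed by 0.10 on the log2 scale (95% interval -0.05 to 0.24), Chgb by 0.01 (-0.14 to 0.16) and Chga by 0.11 (-0.14 to 0.35), each with adjusted p = 1 by limma with Benjamini-Hochberg adjustment over all genes. None of the 3 genes passed, in a comparison in which 0.0512% of the genes tested did, and at an unadjusted p under 0.05 there were also 0, against 2.75% of all genes. For Scg2 the interval corresponds to 0.969-fold to 1.18-fold and for Chga, on ILMN_2814927, to 0.909-fold to 1.28-fold. The other Chga probes were higher, at 0.20 (-0.01 to 0.41) on ILMN_2723763 and 0.16 (-0.10 to 0.42) on ILMN_2716146. Their intervals reach 1.33-fold and 1.34-fold, so the bound for Chga depends on the probe.

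XX females against XY males give the reference sex difference. Here Chga differed by 0.20 (95% interval -0.05 to 0.44), 0.27 (0.06 to 0.48) and 0.31 (0.05 to 0.57) on its 3 probes, in the order given above. In folds these are 1.15, 1.20 and 1.24. The unadjusted p of limma was 0.107, 0.0149 and 0.0198, and the adjusted p was 1 for each, so no Chga probe passed. The direction was the same within batch 1, at 0.23, and within batch 2, at 0.15, on the probe used for the gene. Scg2 differed by 0.09 (-0.05 to 0.23) and Chgb by 0.03 (-0.12 to 0.18), and 0 of the 3 genes passed where 0.0683% of all genes did (4.24% at an unadjusted p under 0.05).

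XX males against XY males differ in sex chromosomes and share testes. The differences were 0.02 for Scg2, 0.08 for Chgb and 0.08 for Chga, and 0 of 3 genes passed, against 0.0598% of all genes (5.63% unadjusted). XXY males minus XX males gave 0.08, -0.07 and 0.03 for Scg2, Chgb and Chga, again with 0 of 3 passing, against 0.0256% (6.55% unadjusted). XX females minus XX males, which share XX chromosomes and differ in gonads, gave 0.07, -0.05 and 0.12, with 0 of 3 passing, against 0.0256% (6.73% unadjusted). XX females minus XXY males gave -0.01, 0.02 and 0.09, with 0 of 3 passing, against 0.0512% (5.35% unadjusted). These comparisons share groups and are not independent of each other. Without XX male 6, Chga was at 0.0037 in XX males minus XY males and at 0.20 in XX females minus XX males (adjusted p = 0.998), and no call changed.

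Over all 6 comparisons, 0 of 18 gene tests passed by limma, with adjusted p of 0.829 or more, and 0 had an unadjusted p under 0.05. Their 95% intervals lay between -0.22 and 0.44, or 0.857-fold to 1.36-fold. Counting every probe, 0 of 30 tests passed and 2 had an unadjusted p under 0.05, both of them Chga in XX females against XY males. The moderated F test over the 4 groups gave adjusted p = 0.951 for Scg2, 0.978 for Chgb and 0.951 for Chga, where 0.0854% of all genes passed and 4.95% had an unadjusted p under 0.05.

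**Figure D2:**
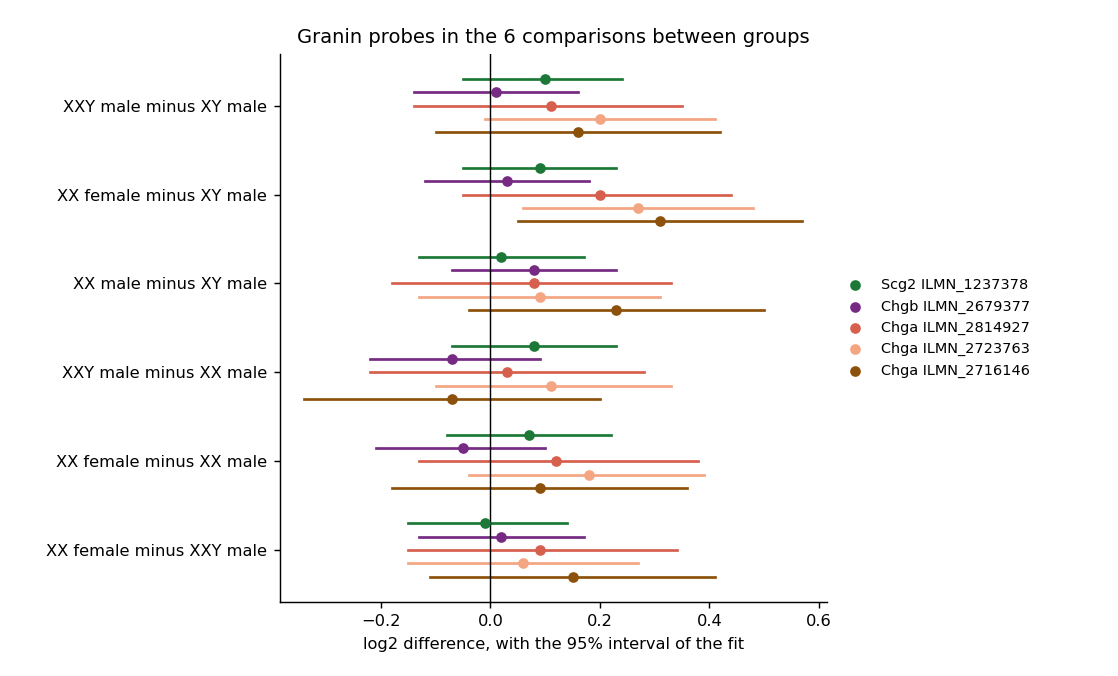
Log2 difference (x axis) of each granin probe in the 6 comparisons between groups (y axis), as points with the 95% interval of the limma fit. Chga probes lie at 0.20, 0.27 and 0.31 in XX females minus XY males, and of the 30 intervals only those at 0.27 and 0.31 leave out 0.

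The 3 Chga probes gave unlike differences between the 2 batches, and the labels do not say what the batches are. In batch 2 minus batch 1, 44.7% of all genes passed (51.6% unadjusted), and 0 of the 3 granin genes did, with 2 of them under an unadjusted p of 0.05. Scg2 differed by -0.03 (95% interval -0.14 to 0.08, adjusted p = 0.701). Chgb was at 0.12 (SE 0.0548, adjusted p = 0.0876), with means of 11.87 ± 0.11 (SD, n = 11) in batch 2 and 11.76 ± 0.15 (n = 20) in batch 1. Chga was at 0.21 on ILMN_2814927 (0.03 to 0.39, adjusted p = 0.057), at -0.27 on ILMN_2723763 (-0.43 to -0.11, adjusted p = 0.00524) and at -0.05 on ILMN_2716146 (-0.24 to 0.15, adjusted p = 0.724). Probes to the same transcript record thus differed between batches in opposite directions, and the batch value of Chga depends on the probe. Counting XX male 6 in batch 2 brought ILMN_2814927 to 0.25 (adjusted p = 0.013).

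**Figure D3:**
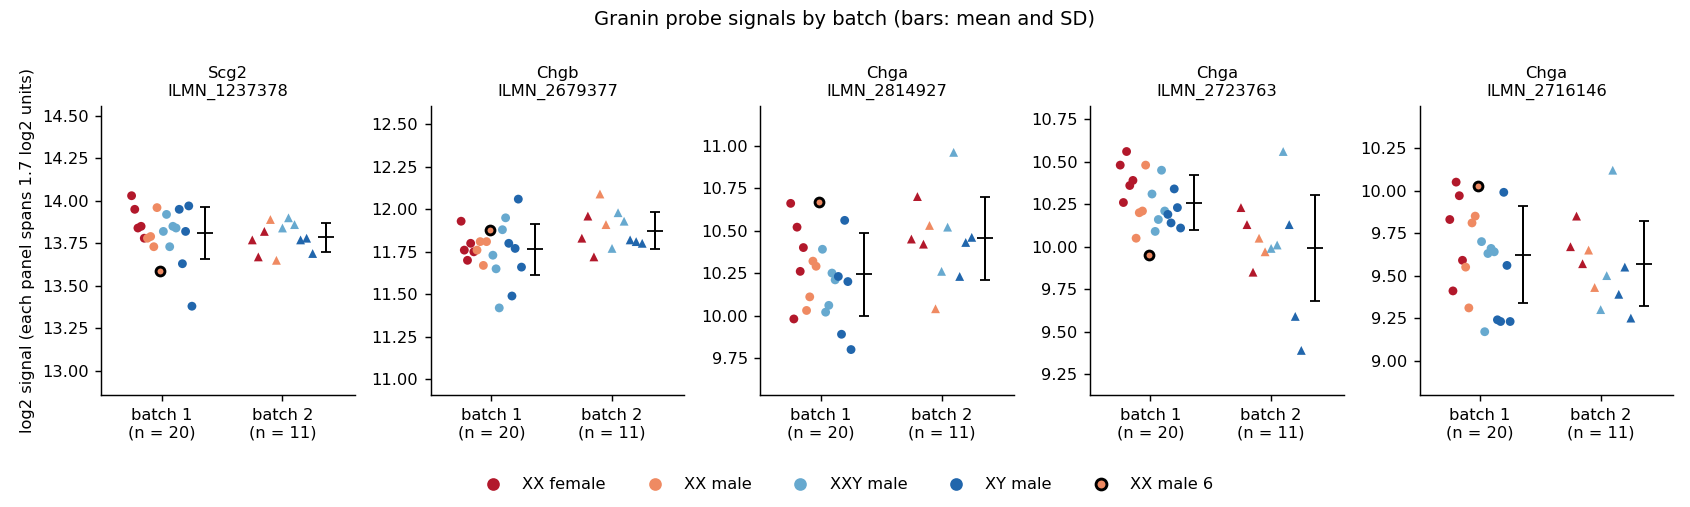
Log2 signal of each granin probe (y axis) in batch 1 and batch 2 (x axis), coloured by group, with mean and SD as bars and XX male 6 ringed. ILMN_2814927 has means of 10.24 and 10.45 in batches 1 and 2, while ILMN_2723763 of the same gene has 10.26 and 9.99.

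Deviations from the group and batch fit show how far the Chga probes tell the same story from array to array. ILMN_2814927 and ILMN_2716146 went together at r = 0.80 over 31 arrays (permutation p = 2e-05, two-sided, 100000 resamples within batch) and rho = 0.76 (p = 2e-05), and at 0.77 and 0.85 within batches 1 and 2. ILMN_2814927 and ILMN_2723763 gave r = 0.31 (permutation p = 0.112) and rho = 0.28 (p = 0.151). Without XX male 6, which was the highest XX male on the first probe and the lowest on the second, that r was 0.47, and within batch 1 it went from 0.38 to 0.72. ILMN_2723763 and ILMN_2716146 gave r = 0.46 (permutation p = 0.0112) and rho = 0.34 (p = 0.0691). Without the 2 arrays farthest from the median these 3 values were 0.75, 0.15 and 0.27. 3 probe pairs were computed, and the adjusted p of r was 6e-05, 0.112 and 0.0168 in the order given.

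The granins were then set against each other over the 31 arrays, with group and batch removed. Chga and Chgb had r = 0.43 (two-sided permutation p = 0.0249) and rho = 0.47 (p = 0.0138), with 0.42 in batch 1 and 0.71 in batch 2. Chgb and Scg2 had r = 0.46 (permutation p = 0.0262) and rho = 0.42 (p = 0.0284), with 0.49 and 0.19 by batch. Chga and Scg2 had r = 0.25 (permutation p = 0.206) and rho = 0.15 (p = 0.452), with 0.25 and 0.23 by batch. Adjusted over the 3 pairs the p of r was 0.0393, 0.0393 and 0.206. Adjusted over all 11710 other genes of each granin, no pair passed, with adjusted p of at least 0.222. Chgb stood at place 705 of 11710 in the order of r with Chga and at place 450 with Scg2, so many other genes went with each granin more closely than its relatives did.

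With any single array left out, Chga and Chgb ran from 0.38 to 0.47 and passed over the pairs in 23 of 31 cases, and Chgb and Scg2 ran from 0.36 to 0.52 and passed in 22 of 31. Without the 2 arrays farthest from the median of the first gene, r was 0.45 for Chga and Chgb (adjusted p = 0.0985), 0.30 for Chgb and Scg2 and 0.21 for Chga and Scg2. The pair of Chgb and Scg2 therefore rests in part on XY male 4 and XXY male 3, and without them it did not pass (adjusted p = 0.231 over the pairs). Without XX male 6 the 3 values were 0.42, 0.52 and 0.42, and without XY male 5 they were 0.42, 0.50 and 0.09. Chga and Scg2 thus had values from 0.09 to 0.42 depending on a single array, while the r of Chga and Chgb moved little. On the other Chga probes, Chga and Chgb both times gave r = 0.30 and did not pass.

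Before the correlations with other secretory genes, their group differences were checked. 4 lists were used, made up of other granin-like genes (4 of 4 measured), prohormone processing enzymes (6 of 10), vesicle membrane and release genes (19 of 26) and neuropeptide precursors (32 of 55). The last list also holds other secreted proteins, among them Bdnf, Igf1, Edn1, Nxph4, Cbln1 and Cbln2. No member of the first 3 lists passed in any of the 6 comparisons between groups. Among the neuropeptide precursors 1 passed, Kiss1, the precursor of kisspeptin, higher in XX females by 1.16 against XY males (SE 0.181, adjusted p = 0.000826), by 1.22 against XX males and by 0.97 against XXY males. In XXY males minus XY males the list medians were -0.02, 0.02, 0.00 and 0.03, beside a median of 0.003 over all genes. Between batches 44.7% of all genes passed, and list members passed widely too. Of 4 granin-like genes 2 passed, both higher in batch 2, and of 6 processing enzymes 2 were higher and 2 lower. Of 19 vesicle genes 6 were higher and 6 lower, and of 32 neuropeptide precursors 7 were higher and 2 lower. The 2 granin-like genes were Pcsk1n, which encodes the convertase inhibitor proSAAS, higher by 0.56 in batch 2 (adjusted p = 6.14e-07), and Scg3, a granin that binds chromogranin A, by 0.24 (adjusted p = 0.000841).

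Each granin was correlated with each measured member of the 4 lists, 183 relations in all. Over the whole table of genes, 0.495% of the 11710 genes passed with Chga, 0.521% with Scg2 and 0.0% with Chgb. At an unadjusted permutation p under 0.05 these shares were 17.7%, 14.8% and 11.5%. Among the list members, 1 of 61 passed with Chga, 2 of 61 with Scg2 and 0 of 61 with Chgb, and unadjusted p fell under 0.05 for 16, 16 and 3 of them. Adjusted over the 183 relations alone, 10 passed, all positive, with 4 for Chga, 6 for Scg2 and 0 for Chgb. The share of all genes at that cut was not computed, so this count has no background beside it. In the order of r with Chga, for example, Pomc stood at place 121 of 11710 and Atp6ap1 at place 171. With Scg2, Oxt stood at place 81 and Npb at place 85. Many genes outside the lists thus had a higher r than these members.

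Scg2 and Trh, the precursor of thyrotropin-releasing hormone, had the highest r of any list member. Trh log2 signals ran from 12.21 in XY male 5 to 13.20 in XY male 4, the arrays that were also lowest and highest among the XY males for Scg2, with a median of 12.88. The deviations gave r = 0.78 (permutation p = 2e-05, adjusted p = 0.026 over all genes) and rho = 0.70 (p = 9e-05). Trh stood at place 3 of 11710 genes in the order of r with Scg2. Within batch 1 r was 0.81 and within batch 2 it was 0.79, without XY male 5 it was 0.69, and without the 2 arrays farthest from the median, XY males 5 and 4, it was 0.66.

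Rln1, which encodes the insulin-family hormone relaxin, also passed over all genes with Scg2. Its log2 signals were low on the scale, from 6.47 in XX female 7 to 7.50 in XX female 8, with a median of 7.25. The relation had r = 0.65 (permutation p = 2e-05, adjusted p = 0.026) and rho = 0.76 (p = 2e-05), with 0.74 and 0.73 by batch and 0.67 without the 2 farthest arrays. XX female 7 lay far below the rest in Rln1, at -0.68 from the fit, while its Scg2 deviation was -0.15.

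Chga and Ptprn formed the remaining relation past the threshold over all genes. It used ILMN_2814927, as did all Chga relations with list genes, and the other Chga probes were not set against Ptprn. Ptprn encodes IA-2, a protein of the dense-core vesicle membrane. Its log2 signal ran from 8.21 in XY male 2 to 9.54 in XXY male 8, the array with the highest Chga, with a median of 8.76. The deviations gave r = 0.68 (permutation p = 0.00014, adjusted p = 0.039) and rho = 0.60 (p = 0.00095), with 0.76 and 0.77 by batch. Without the 2 arrays farthest from the median it was 0.67, and without XX male 6, which was high in both genes, it was 0.62. Ptprn had r = 0.34 with Chgb and 0.06 with Scg2, and whether these differ from 0.68 was not tested.

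**Figure D4:**
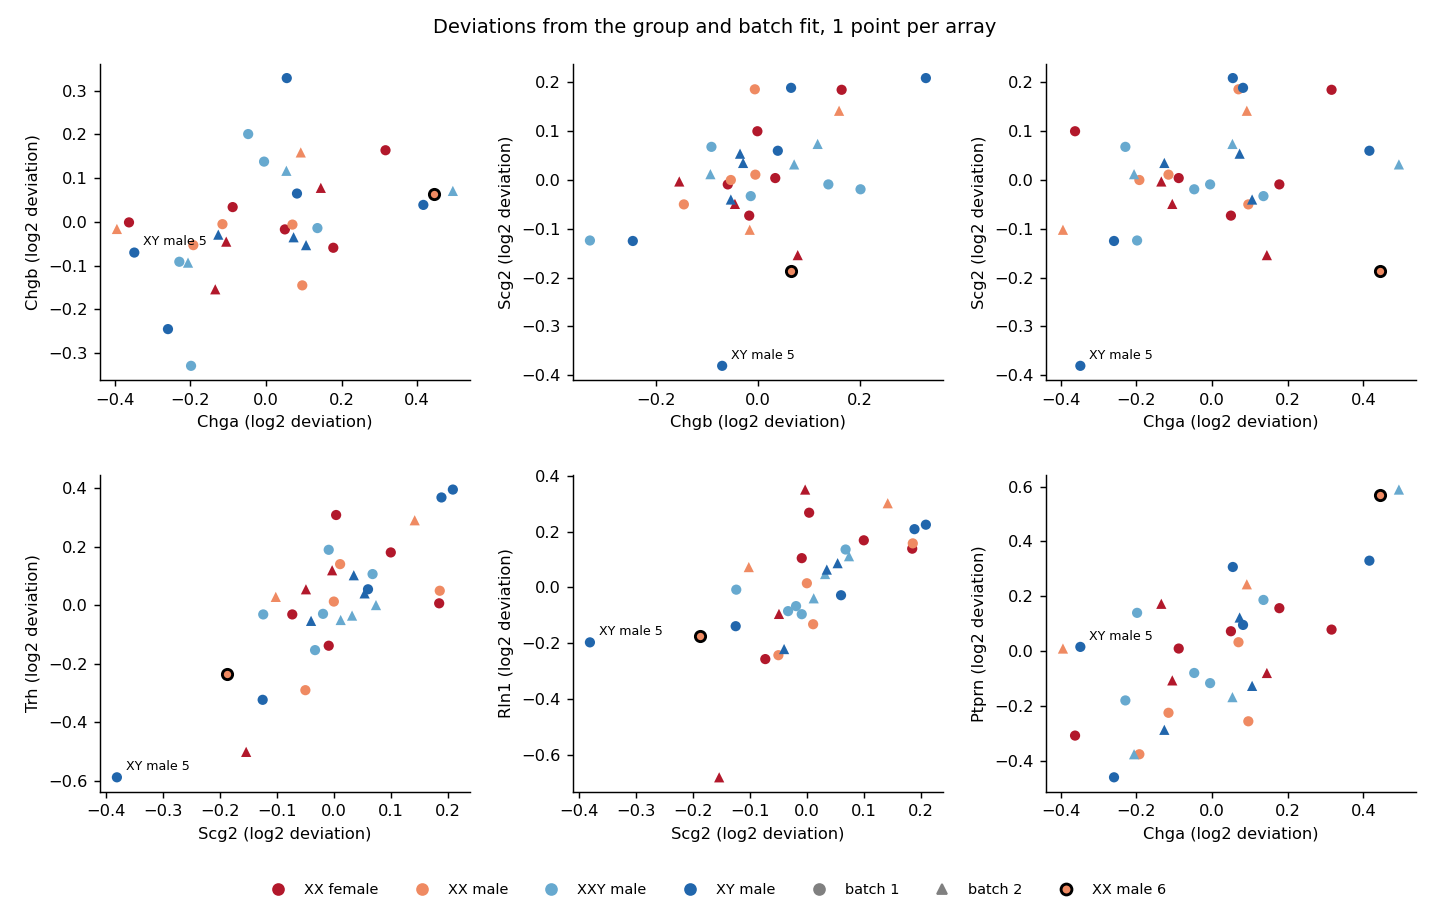
Log2 deviations from the group and batch fit, 1 point per array, for the 3 granin pairs (top) and for Scg2 with Trh and Rln1 and Chga with Ptprn (bottom), with axes in log2 units, circles for batch 1 and triangles for batch 2. XY male 5 is lowest in Scg2 at -0.38 and in Trh at -0.59, and XX male 6 (ringed) is high in Chga and low in Scg2.

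The other 7 relations passed only over the 183. With Scg2 these were Adcyap1, the precursor of PACAP, at r = 0.61 (rho 0.60), oxytocin (Oxt) at 0.60 (rho 0.48), neuropeptide B (Npb) at 0.60 (rho 0.58) and Cadps2, a priming factor of vesicle release, at 0.60 (rho 0.60). Their permutation p was 0.00071, 0.00234, 0.00116 and 0.0013 for r, and 0.00075, 0.0123, 0.00215 and 0.00134 for rho. Oxt was at 0.68 in batch 1 and 0.01 in batch 2, and at 0.37 without XY male 5, whose Oxt signal of 12.77 was the lowest of all arrays. Without XX male 6, whose Oxt signal of 14.39 was the highest, it was at 0.75. The value for Oxt therefore depends on batch and on single arrays. Adcyap1 gave 0.59 and 0.73 by batch and 0.58 without XY male 5, Npb 0.61 and 0.63 by batch, and Cadps2 0.61 and 0.55. Without XY male 5, Npb was at 0.56 (adjusted p = 0.0573 over the 183), and without XX male 6, Cadps2 was at 0.56 (adjusted p = 0.0565), so neither passed there.

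With Chga they were Pomc, the melanocortin precursor, at 0.58 (rho 0.47), Adcyap1 at 0.57 (rho 0.51) and Atp6ap1, an accessory subunit of the vesicle proton pump, at 0.56 (rho 0.54). Their permutation p was 0.00123, 0.00174 and 0.00223 for r, and 0.0126, 0.00625 and 0.0038 for rho. Pomc was detected on 22 of 31 arrays, from 4.72 to 9.56, and its r with Chga was 0.74 in batch 1 and -0.03 in batch 2. Adcyap1 gave 0.65 and 0.63 by batch. Atp6ap1 gave 0.56 and 0.53 by batch, but 0.44 without XX male 6 (adjusted p = 0.165), where it did not pass. It did not pass on the submitters' values either (0.49, adjusted p = 0.0939). Without XY male 5, Pomc and Adcyap1 were both at 0.53 (adjusted p = 0.0733) and did not pass. Adcyap1 is the only gene among the 10 relations that appears with 2 granins.

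As a list, the neuropeptide precursors and other secreted proteins had a median r of 0.26 with Scg2, 29 of 32 positive, where all genes had a median of 0.02 and 53.0% positive. By batch that median was 0.29 in batch 1 and 0.05 in batch 2. With Chga it was 0.13, with 19 of 32 positive (51.9% of all genes), and with Chgb 0.04, with 18 of 32 positive (52.1%). The lowest members with Scg2 were Cbln2, a synaptic organizer, at -0.35 and Cck, cholecystokinin, at -0.33. With Chga the lowest were Ucn3, urocortin 3, at -0.37 and Bdnf, a neurotrophin, at -0.36. With Chgb the highest were Oxt at 0.40 and Trh at 0.38, and the lowest were Nts, neurotensin, at -0.38 and Cbln2 at -0.25, none of them past the threshold.

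The vesicle membrane and release genes had median r of 0.14 with Chga, 0.11 with Chgb and 0.06 with Scg2. Below Cadps2, the next with Scg2 was the GTPase Rab27a at 0.45, and the lowest were Atp6ap1 at -0.30 and Rab3a at -0.25. With Chgb the highest were Rph3a, an effector of Rab3 GTPases, at 0.46 and Rab27a at 0.42, and the lowest Rab2a at -0.27 and Atp6ap2 at -0.10. With Chga the lowest were Cadps at -0.42 and Rab2a at -0.31, the latter at -0.10 without XX male 6. Atp6ap1 thus had opposite signs with Chga and Scg2 (-0.15 without XX male 6), a difference that was not tested. By batch, Rph3a with Chgb was at 0.62 and -0.20.

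Processing enzymes had medians of 0.08 with Chga, 0.11 with Chgb and 0.07 with Scg2, and 0 of 18 relations passed. The highest were Pcsk7, a proprotein convertase, at 0.50 and Pam, which amidates peptides, at 0.32 with Chga. With Chgb they were Furin at 0.38 and Ctsl at 0.30, and with Scg2 Qpct, glutaminyl cyclase, at 0.57 and Pcsk7 at 0.39, which was -0.02 without XY male 5. The lowest were Qpct at -0.33, but 0.00 without XX male 6, and Cpd at -0.15 with Chga, and Cpd, a carboxypeptidase, at -0.41 and -0.37 with Chgb and Scg2, followed by Pam at -0.08 and -0.29. The neuroendocrine convertases Pcsk1 and Pcsk2 and the carboxypeptidase Cpe are not analysed here.

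Other granin-like genes had medians of 0.32 with Chga, 0.21 with Chgb and 0.10 with Scg2, and 0 of 12 relations passed. Scg3 was at 0.40, 0.33 and 0.38 with Chga, Chgb and Scg2, and Vgf, a neuropeptide precursor, at 0.24, 0.39 and 0.34. Scg3 with Scg2 was at 0.06 without XY male 5 and at 0.61 without XX male 6, so single arrays set that value. Pcsk1n was at 0.43, 0.10 and -0.14, and without XX male 6 at 0.21, 0.03 and 0.20. Scg5, which encodes the convertase chaperone 7B2, was negative with all 3, at -0.41, -0.17 and -0.28.

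**Figure D5:**
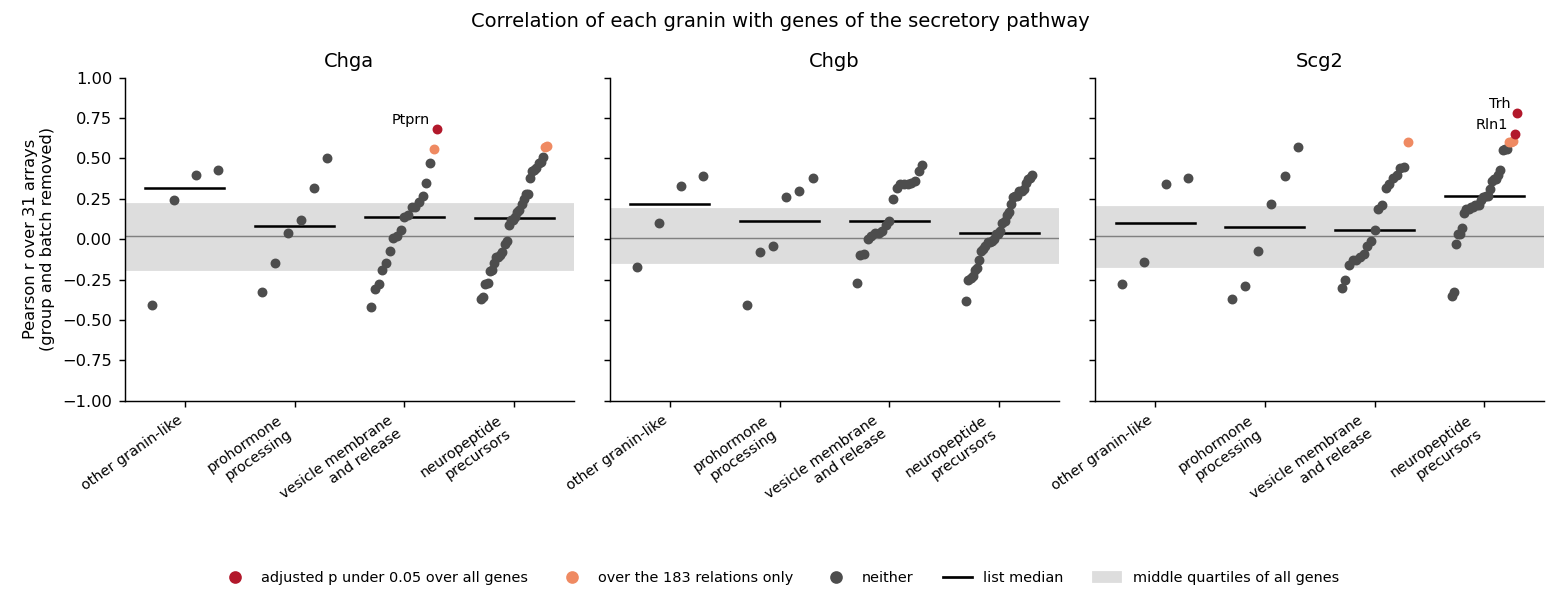
Pearson r (y axis, 31 arrays, group and batch removed) of each granin with every measured member of 4 secretory lists (x axis), with list medians as black lines and the middle quartiles of all 11710 genes in grey. Red points pass over all genes (Ptprn with Chga, Trh and Rln1 with Scg2), orange points pass over the 183 relations alone, and the median of the neuropeptide list with Scg2 is 0.26, which was 0.29 within batch 1 and 0.05 within batch 2.

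Marker lists of nearby regions and other cells were set against the granins in the same way, as 60 relations of which 5 passed for r and 0 for rho. The first 2 lists below share genes with relations already given (Trh and Oxt with Scg2, Pomc with Chga) or named below (Tbx3 with Chga), so they add no separate evidence. The mean of 3 magnocellular and paraventricular markers (Avp, Oxt and Trh of 6) had r = 0.68 with Scg2 (permutation p = 0.00031, adjusted p = 0.0093) and rho = 0.56 (p = 0.00352), with 0.75 in batch 1, -0.06 in batch 2 and 0.48 without the 2 farthest arrays. Its level per array ran from 12.46 to 13.12 in XX females, 12.88 to 13.42 in XX males, 12.35 to 13.53 in XXY males and 11.84 to 13.69 in XY males. The mean of 4 arcuate markers (Pomc, Npy, Kiss1 and Tbx3 of 6) had r = 0.65 with Chga (p = 0.00031, adjusted p = 0.0093) and rho = 0.47 (p = 0.0128), with 0.76 and 0.26 by batch and 0.60 without the 2 farthest arrays. Its level ran from 7.11 to 8.76 in XX females, 6.79 to 8.19 in XX males, 6.78 to 8.72 in XXY males and 6.77 to 8.83 in XY males. The mean of 3 blood markers of 4 had r = -0.57 with Chgb (p = 0.00134, adjusted p = 0.0163) and rho = -0.40 (p = 0.0394), with -0.77 and 0.09 by batch and -0.37 without the 2 farthest arrays. Its level ran from 8.95 to 9.70, 8.81 to 10.11, 9.13 to 10.39 and 8.50 to 10.18 in the groups in that order. The remaining 2 were lists already described, vesicle membrane and release genes with Chgb at 0.63 (p = 0.00101, rho 0.50, p = 0.00608) and neuropeptide precursors with Scg2 at 0.60 (p = 0.00136, rho 0.46, p = 0.0141), each with adjusted p = 0.0163. The vesicle list gave 0.66 and 0.44 by batch and 0.57 without the 2 farthest arrays. The neuropeptide list gave 0.68 in batch 1, 0.04 in batch 2 and 0.37 without the 2 farthest arrays. General neuronal markers gave 0.03, 0.24 and -0.41 with Chga, Chgb and Scg2, and did not pass. How much the amount of these regions or cells in each piece of tissue enters the granin values was not tested.

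The genes most like each granin over all genes were mostly outside the secretory lists. They are named by Pearson r of the deviations over 31 arrays, as a description. For Scg2 they were Prmt2, an arginine methyltransferase, at 0.85, Epdr1, an ependymin-related protein, at 0.81, Trh at 0.78, Timm9, a chaperone of mitochondrial import, at 0.75 and Ern2, a sensor of the unfolded protein response, at 0.74. Prmt2 gave 0.88 and 0.69 by batch, while Epdr1 gave 0.90 and 0.21 and Timm9 0.85 and -0.12. The lowest were Coa5 and the asparagine synthetase gene Asns at -0.73, and Bhlhe40, a clock-related repressor, Ndufb2, a subunit of respiratory complex I, and Dgat2, an enzyme of triglyceride synthesis, at -0.72.

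For Chga the highest were Ltbp3, a binding protein of latent TGF-beta, and Tbx3, a T-box transcription factor, at 0.77. Slc29a4, a monoamine transporter, St8sia2, a polysialyltransferase, and Nucb1, a Golgi calcium-binding protein, were at 0.76. All 5 stayed between 0.55 and 0.86 in both batches. The lowest were Cmpk1, a nucleotide kinase, at -0.75, Siva1 at -0.74, Med11, a Mediator subunit, and Slc25a32, a mitochondrial folate carrier, at -0.72 and Gm14325 at -0.71. For Chgb the highest were Gprasp1, a sorting protein of G protein-coupled receptors, at 0.78, Snapc4, a factor of small nuclear RNA transcription, at 0.75, Myh10, a non-muscle myosin, and Kctd15 at 0.71 and Ppp1r26 at 0.68. Gprasp1 and Myh10 gave 0.79 and 0.76 in batch 2, and Kctd15 0.26. The lowest with Chgb were Trps1, a zinc finger repressor, at -0.73, the ribosomal protein gene Rpl27a at -0.72, Vamp7, a vesicle fusion protein, and Gabrg1, a GABA receptor subunit, at -0.70 and Mospd1 at -0.69.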

How the data were processed

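Total RNA from 31 BNST/POA samples was labelled with biotin, per the labels' protocols, and read on bead arrays whose probe identifiers are Illumina's. The authors deposited a scanner table that gives for each of 25697 probes a bead-averaged intensity, a bead standard error, a bead number and a detection p-value per array. Their series matrix holds processed log2 values for 12980 probes, and limma is named, with no role given, per the submitters' processing notes. Each deposited log2 column had a median of 8.65 and matched its own array's scanner values best (31 of 31). Pooled over all arrays, the deposited values correlated at 0.997 with the normalized values used here, so their scale and direction follow the scanner table. The exact normalization of the series matrix and its handling of batch were not given in the sources used here. Its first component was 3.04% batch, against 83% in the values used here. For ILMN_2814927 the means of batches 1 and 2 were 10.33 and 10.34 in it, against 10.24 and 10.45 here. XX male 6 was at 10.58 in it and 10.67 here, so it moved down as the batch 2 mean did. The series matrix holds every probe detected on 21 or more arrays and none detected on 20 or fewer, and 31 of its cells are empty.

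Intensities were background-corrected, quantile-normalized and set to log2 with neqc (limma 3.58.1, R 4.3.3, offset 16). Probes with a detection p under 0.05 on at least 7 arrays were kept (14989), and the probe with the highest mean stood for each gene, which mattered for 2364 genes. Of the 11711 genes tested, 8972 had a symbol and 2739 were unnamed probes. Gene symbols were to hand for 12250 of the 14989 probes kept, 1 symbol each, so a list member without a named probe counts as not measured, and 6 symbols were updated through the RefSeq table of GRCm38.p6, from which the promoters also come. Group and batch were fitted with limma, and p-values were adjusted by Benjamini and Hochberg over all 11711 genes. The Chga probes not used for the gene were each fitted in its place. Correlations used the deviations from that fit, with two-sided permutation tests of 100000 resamples within batch (Python 3.11.15, numpy 2.4.6, scipy 1.17.1, pandas 2.3.3), whose smallest possible p is 1e-05. Both procedures were tested on simulated data with known changes. The number of arrays limits the precision.

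Named were the granins, the 5 genes highest and the 5 lowest in r with each, the 2 highest and the 2 lowest members of each secretory list with each, and list members past a threshold. The members and lists were chosen with earlier results of these data known. With group and batch removed, same-numbered arrays of different groups had correlations of -0.241 to 0.308 (median 0.037, 14 of 45 over 0.1). Other pairs of the same batch had a median of -0.078, so same-numbered arrays were somewhat more alike. The labels give no pairing, and replicate numbers were not used as pairs in the main fit. Values with the replicate number as a block are given below. The alternatives tried were other normalizations, probe filters, Chga probes, batch handling, the deposited values and leaving out each array in turn.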

Additional observations from a re-analysis of the deposited data

Results flagged for a closer look

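In 1 of the 20 sets of a probe and a group that were checked, a single array stood apart from its group. On the Chga probe ILMN_2716146, XY male 3 was at 9.99 on the log2 scale, while the next of the 8 XY males was at 9.56. Its gap was 0.566 of the group's range, above Dixon's critical value of 0.526 for 8 samples, which chance passes in about 1 of 20 such sets. XY male 3 was also the highest XY male on the other 2 Chga probes, at 10.56 and 10.34, without standing apart there.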

How the results depend on the processing

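No alternative brought a difference between groups past the threshold. Over the 6 comparisons of each granin, 0 of 786 values under other settings passed by limma, with adjusted p of 0.662 or more. The replicate block left Chga in XX females minus XY males at 0.20 (adjusted p = 0.864) and changed no call, and with it removed the correlations of Chga with Chgb, Chga with Scg2 and Chgb with Scg2 were 0.53, 0.37 and 0.53 (adjusted p = 0.03, 0.0852 and 0.03). The labels give the numbers no meaning, and 7 of 31 arrays correlated best with their own number in other groups, although the arrays numbered 2 and those numbered 6 stood apart in detected probes and in median intensity.

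Small differences changed sign, and the cause was not tested. On the submitters' values Chgb in XXY males minus XY males was -0.0035, Scg2 in XX females minus XXY males 0.002 and Scg2 in batch 2 minus batch 1 0.02. The last is a difference in values whose first component was only 3.04% batch, against 83% in the values used here. Within batch 1 Chga in XXY males minus XX males was -0.1, Chgb in XXY males minus XY males -0.03, Chgb in XX females minus XX males 0.0018 and Scg2 in XX females minus XXY males 0.06, and without XX male 6 these were -0.0026, -0.03, 0.03 and 0.06. Within batch 2 Chga in XX males minus XY males was -0.09, Chga and Chgb in XX females minus XXY males -0.05 and Scg2 in XX females minus XX males -0.02. On probe ILMN_2716146 Chga in XXY males minus XX males was -0.07.

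The batch difference of Chga was -0.05 on ILMN_2716146, -0.27 on ILMN_2723763, 0.19 with no background correction (adjusted p = 0.049) and 0.25 with XX male 6 in batch 2 (adjusted p = 0.013). For Scg2 it was 0.0046 after cyclic loess.

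The correlation of Chga and Chgb did not pass on the submitters' values (0.41), after cyclic loess (0.39), with XX male 6 in batch 2 (0.40), within batch 1 (0.42, or 0.40 without XX male 6), within batch 2 (0.71), without the 2 farthest arrays (0.45, adjusted p = 0.0985), on either other Chga probe (0.30) or adjusted over all genes (0.43). That of Chgb and Scg2 did not pass after cyclic loess (0.46), with group alone removed (0.38), with nothing removed (0.34), within batch 1 (0.49, or 0.58 without XX male 6), within batch 2 (0.19), without the 2 farthest arrays (0.30) or adjusted over all genes (0.46). Of the 183 relations, 10 passed, against 4 within batch 1, 0 within batch 2 (9 at an unadjusted permutation p under 0.05), 5 without the 2 farthest arrays and 3 adjusted over all genes, and 4, 0, 4 and 3 of these were among the 10. On the submitters' values 8 of 180 relations passed, 7 of them among the 10. With XX male 6 in batch 2, 9 of 183 passed, 8 of them among the 10. Chga with Atp6ap1 (0.49 and 0.48) and Scg2 with Cadps2 (0.51 and 0.53) passed in neither setting. Chga and Pomc was at -0.03 within batch 2. XX male 6 in batch 2, batch 1 without it, the correlations without XY male 5 and the adjustment over all genes were chosen after seeing the data.

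With single arrays left out, Chga and Chgb ran from 0.38 to 0.47 and passed in 23 of 31 cases, and failed to pass without XX female 1 or 8, XX male 7, XXY male 2, 3, 6 or 8 or XY male 2. Chgb and Scg2 ran from 0.36 to 0.52 and passed in 22 of 31, failing without the same 8 arrays or XY male 4 (0.36). Chga and Scg2 ran from 0.09 to 0.42 and passed only without XX male 6. The count of 10 ran from 6, without XY male 5, to 12, without XX male 6, the only arrays left out there. The batch difference of Chga ran from 0.16 to 0.26 and passed without XX female 1, XX male 6 or 8, XXY male 6 or XY male 3, and stood at the threshold without XX female 3, and that of Chgb ran from 0.09 to 0.14 and passed without XY male 4. Signs changed for Chga in XXY males minus XX males (-0.05 to 0.1), for Chgb in XXY males minus XY males (-0.02 to 0.06), XX females minus XY males (-0.01 to 0.08) and XX females minus XXY males (-0.03 to 0.05), and for Scg2 in XX males minus XY males (-0.04 to 0.05) and XX females minus XXY males (-0.03 to 0.02). All 5 granin probes were detected on all 31 arrays, and the number of arrays limits the precision of these values.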
